A study of Drosophila melanogaster with 7 samples.

Results

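GFP-positive cells were defined here as tumor cells with at least 1 unique molecular identifier (UMI, one captured transcript) of the features entry Cd8a-EGFP, and GFP-negative cells as those with 0. Both were cells of Drosophila melanogaster intestinal tumors with 100 to 2000 detected genes, at most 15% of UMIs from mitochondrial (mt:) genes and at least 1000 UMIs. Of 4805 such cells, among 9914 deposited, 898 (18.7%) were GFP-positive and 3907 were GFP-negative. Libraries with at least 10 cells of each class were compared, which left 888 GFP-positive and 3840 GFP-negative cells in 5 of 7 libraries. Because the Cd8a-EGFP count chose the classes, its own level is given as a description and not as a result.

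The tumors came from a cross between 2 fly lines. One parent was yw,HS-flp, HS-mflp5 on the first chromosome, esg-gal4,UAS-flybow on the second and FRT82B,Tub-Gal80 on the third. The other parent was yw,HS-flp on the first, UAS-RasV12 on the second and FRT82B,Apc2N175K,ApcQ8 on the third. Cells of both classes therefore came from flies with the same transgenes and from tumors induced in the same way, with a heat shock of 2 h at 37 °C given to adults 2 to 3 days old and dissection at 21 days post-induction or later, after flies had been picked by the GFP seen in the abdomen. Tind1 to Tind6 were libraries of 1 tumor each, and Tgrp was a pool of 6 tumors whose cells could not be assigned to a tumor. No library from a gut without tumor was used here.

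The reporter works through the Gal4/UAS system. The heat shock makes a recombinase that exchanges chromosome arms at FRT82B, so that a daughter cell becomes mutant for both Apc genes, which restrain Wnt signaling, and loses Gal80, the repressor of Gal4. Gal4, made under the control of escargot (esg), the snail family gene of intestinal stem cells and enteroblasts, can then drive UAS-RasV12, an always active Ras, and the flybow cassette, which is shuffled by a second recombinase to give 1 of several membrane fluorophores including GFP, mCherry, mTurquoise2 and mCitrine. A clone can therefore be transformed and carry another colour, and a GFP-negative cell is not by definition a cell without RasV12. No features entry carried the name mTurquoise2. Over the 4805 cells, 1319 UMIs fell to Cd8a-EGFP and 4 to mCitrine. How reads were divided among the fluorophore entries was not examined, so the Cd8a-EGFP class need not hold only the GFP colour. Because esg-gal4 is not active in absorptive enterocytes or in hormone-producing enteroendocrine cells of the normal midgut, the reporter reads both the recombination and the cell state.

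The libraries held between 289733 and 6354105 UMIs. Tind4 and Tind5 shared 116 cell barcodes, and the Tind5 copies were left out. Between other pairs at most 3 barcodes were shared. Tind3, with 6 GFP-positive and 24 GFP-negative cells, and Tind6, with 4 and 43, were too small to compare.

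The share of GFP-positive cells varied between libraries and moved with depth. It was 23.6% in Tind1 (exact 95% interval 21.5 to 25.7%), 26.9% in Tind2 (23.0 to 31.0%), 29.8% in Tind4 (26.2 to 33.6%), 14.5% in Tind5 (9.63 to 20.7%) and 9.48% in the pool of 6 tumors (8.19 to 10.9%). With every cell thinned at random to 1000 UMIs before it was classified, the shares were 10.3%, 17.4%, 14.8%, 9.30% and 4.26% in the same order, so the pool was the lowest of these 5 at both depths. Within Tind1 the share was 14.7% of cells with 1000 to 2000 UMIs, 24.9% with 2000 to 4000 and 40.0% above 4000, and within Tind4 it was 9.09%, 29.7% and 46.6%. The share also climbed over the 3 bins in Tind2 (22.1%, 33.6% and 54.2%) and Tgrp (6.15%, 11.4% and 21.1%), whereas Tind5 had 13.6%, 21.2% and 0 of 7 cells. A cell without a Cd8a-EGFP UMI was thus often a shallow cell, and the GFP-negative class includes cells in which the transcript was not captured. These intervals cover counting error only, as do all others given here.

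**Figure D1:**
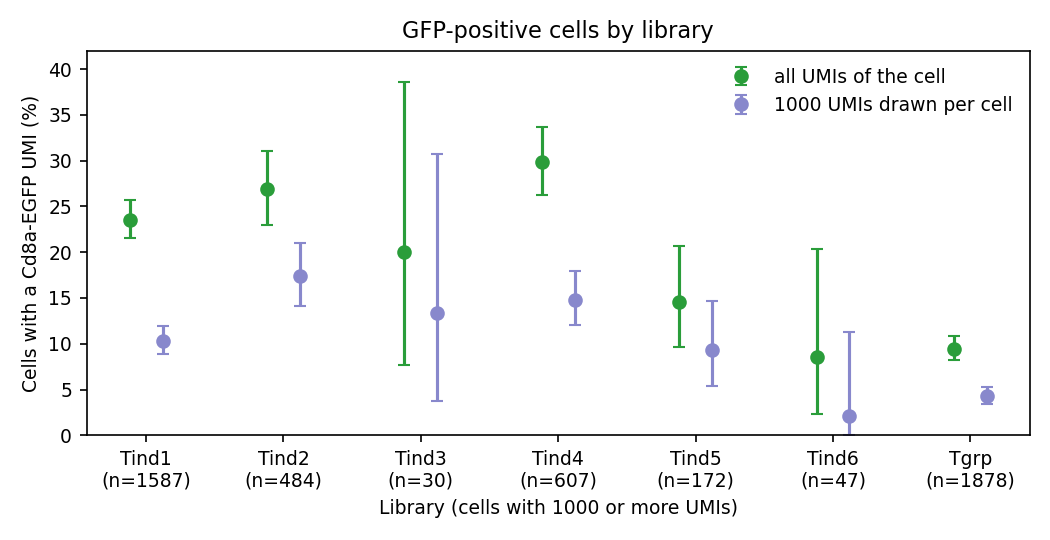
Share of cells with at least 1 Cd8a-EGFP UMI (%) in each of the 7 libraries, at full depth (green) and with 1000 UMIs drawn per cell (blue); bars are exact 95% intervals and n is the number of cells with 1000 or more UMIs. In the draw shown the share at 1000 UMIs lay below that at full depth, for example 10.3% and 23.6% in Tind1, but in Tind3 and Tind6 other draws reached the full-depth counts of 6 and 4 cells.

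Most GFP-positive cells sat just inside the threshold. In Tind1, 260 of 374 GFP-positive cells had 1 Cd8a-EGFP UMI, and in the pool of 6 tumors this held for 155 of 178. The highest count in one cell was 8. Free RNA in the droplets can also give such single UMIs. Enterocytes are a cell type in which esg-gal4 should be silent. Of 468 cells with 10 or more UMIs of enterocyte markers, 45 (9.62%, exact 95% interval 7.10 to 12.7%) were GFP-positive. Of all cells 18.7% were GFP-positive. At 1000 UMIs per cell this was 2.35% (1.18 to 4.17%) of the marker cells and 9.14% (8.34 to 9.99%) of all cells. At full depth GFP-positive cells were 20 of 110 marker cells in Tind1, 1 of 16 in Tind2, 14 of 104 in Tind4, 0 of 14 in Tind5 and 10 of 221 in Tgrp, with median depths from 1303 to 4421 UMIs. How many GFP-positive cells rest on free RNA was not tested. Most UMIs of the enterocyte markers came from Ssk, mesh and Tsp2A, whose levels are compared between the classes below. In the libraries compared, the other markers held 563 of 1886 marker UMIs in GFP-positive cells and 3105 of 16052 in GFP-negative cells. The share in marker cells is thus not separate from that comparison. Of 20 cells with at least 3 UMIs of enteroendocrine peptide hormones, 1 was GFP-positive.

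GFP-positive cells were deeper than GFP-negative cells in every library compared. Their median UMI counts were 3052, 1858.5, 4223, 1705 and 2433.5 in Tind1, Tind2, Tind4, Tind5 and Tgrp, against 2022, 1542.5, 2559.5, 1399 and 1724.5 in GFP-negative cells. The median mitochondrial share was 6.55%, 8.25%, 6.83%, 8.38% and 8.44% in GFP-positive cells, against 6.39%, 8.61%, 4.66%, 8.19% and 7.51% in GFP-negative cells, so the gap was widest in Tind4 and turned round in Tind2. Cells with the highest doublet scores made up 0 to 5.06% of GFP-positive cells, against 0.680 to 3.71% of GFP-negative cells. All levels below are UMIs per 1000000 UMIs (CPM) summed over the cells of 1 class in 1 library, listed in the order Tind1, Tind2, Tind4, Tind5 and Tgrp. Only 45095 UMIs stood behind the GFP-positive sum of Tind5, so that a gene at 0 there may still reach 66.5 CPM, the level of 3 UMIs.

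Few genes rose and more fell in GFP-positive cells. Of 4550 genes tested with the library as block, 15 (0.33%) were called higher and 79 (1.74%) lower, together 2.07%, at an adjusted p under 0.05 in edgeR's quasi-likelihood test with Benjamini-Hochberg adjustment. The median log2 fold change over all 4550 genes was -0.01, and 504 genes had an unadjusted p under 0.05. Of the called genes, 7 were higher (0.154% of those tested) and 57 lower (1.25%) in all 5 libraries. In summed counts, a class with fewer cells of a type and a class whose cells hold less of a transcript cannot be told apart.

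Ras85D, the gene whose activated form RasV12 was driven by the same Gal4 as the reporter, was higher in GFP-positive cells of every library. Its levels were 2416, 3106, 2537, 2639 and 2827 CPM in GFP-positive cells, against 1699, 2745, 992, 1592 and 2142 CPM in GFP-negative cells. The GFP-positive values lay close together, whereas the GFP-negative values spread from the low Tind4 to Tind2, which reached the range of the GFP-positive cells. Ras85D (FBgn0003205, chromosome arm 3R, 9510561 to 9513067; coordinates here are of Drosophila Release 6) averaged 2705 ± 270.1 CPM in GFP-positive cells and 1834 ± 654 CPM in GFP-negative cells (SD, n = 5 libraries each), a 1.55-fold difference (log2 fold change 0.63 ± 0.12 (SE), adjusted p = 0.00132). It stayed past the threshold in each of the 24 alternatives that kept the library as block, with log2 fold changes of 0.34 to 0.80. Its single entry does not separate RasV12 from the fly's own gene.

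The gene with the largest rise was CG3281 (FBgn0260741, chromosome arm 3R, 11960883 to 11962805). It stood at 309, 237, 397, 355 and 335 CPM in GFP-positive cells, against 162, 192, 113, 166 and 194 CPM in GFP-negative cells. No GFP-negative value reached the lowest GFP-positive one, and the gap was widest in Tind4 and narrowest in Tind2. CG3281 averaged 327 ± 59.3 CPM in GFP-positive cells and 165 ± 32.9 CPM in GFP-negative cells (SD, n = 5 libraries each), which was 2.01-fold higher (log2 fold change 1.01 ± 0.14 (SE), adjusted p = 2.73e-05), and it too passed in all 24 alternatives with a block.

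The other 5 genes that rose in every library were vir-1, Hsp70Bb, CG34347, CG14995 and sna. vir-1, known as a virus-induced gene, stood at 43.7, 23.7, 93.4, 44.4 and 161 CPM in GFP-positive cells, against 26.1, 18.3, 47.5, 23.7 and 87.1 CPM in GFP-negative cells (log2 fold change 0.84 ± 0.15 (SE), adjusted p = 0.00104). Its level was highest in the pool in both classes, and without the pool its log2 fold change was 0.82 with adjusted p = 0.0572 in edgeR. With only cells of 2 or more Cd8a-EGFP UMIs as the positive class it was 0.31. Hsp70Bb, a heat-inducible chaperone gene, averaged 87.5 ± 46.2 CPM in GFP-positive cells and 50.2 ± 43.2 CPM in GFP-negative cells (SD, n = 5 libraries each) (log2 fold change 0.76 ± 0.20 (SE), adjusted p = 0.0394). Other Hsp70 genes are near-identical copies, and how reads were divided among them was not examined, so this value is uncertain. It lost the call without Tind1 (0.94), without Tind4 (0.45) and without Tgrp (0.85).

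CG34347, at a low level in both classes, stood at 26.7, 27.1, 39.3, 44.4 and 30.8 CPM in GFP-positive cells, against 14, 18.3, 17.9, 19.8 and 20.7 CPM in GFP-negative cells (log2 fold change 0.85 ± 0.21 (SE), adjusted p = 0.025), with as few as 2 UMIs in the GFP-positive sum of Tind5. The classes did not overlap. CG14995 averaged 45.3 ± 16.0 CPM in GFP-positive cells and 27.8 ± 12.4 CPM in GFP-negative cells (SD, n = 5 libraries each) (log2 fold change 0.68 ± 0.18 (SE), adjusted p = 0.037). Without Tind1 the call was lost for CG34347 (0.82) and CG14995 (0.68). Without Tind2 the call was lost for CG14995 (0.60). Without Tind4 the call was lost for CG34347 (0.74) and CG14995 (0.71). Without Tgrp the call was lost for CG34347 (0.96) and CG14995 (0.73). Among the alternatives vir-1 was called in 15 of 20, Hsp70Bb in 13 of 24, CG34347 in 11 of 18 and CG14995 in 9 of 20.

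Of the 8 genes called higher without the same direction in every library, Nop10 (log2 fold change 0.43), of the particle that guides pseudouridylation of ribosomal RNA, and Df31 (0.44), a chromatin protein, were higher in 4 of 5 libraries. Cpr51A (0.82), a cuticle protein gene, was so in 3. CG45060 (0.81) and CG45061 (0.74) lie close together on the X chromosome, from 9868068 to 9871702. The noncoding lncRNA:roX2 (0.67), a dosage compensation RNA of males, was detected in only 3 of the 5 libraries. It had 218, 267 and 142 CPM in GFP-positive cells of Tind1, Tind4 and Tgrp, against 158, 192 and 60.1 CPM in GFP-negative cells. Without the pool its log2 fold change was 0.47 with adjusted p = 0.291 in edgeR. CG3788 (0.61) completed this set together with zfh2, described next to sna. Without Tind1 the call was lost for Nop10 (0.46), Df31 (0.41), Cpr51A (0.66), CG45060 (0.82) and CG3788 (0.62). Without Tind2 the call was lost for Nop10 (0.44) and Df31 (0.42). Without Tind4 the call was lost for Nop10 (0.37), Df31 (0.39), Cpr51A (0.76), CG45060 (0.45), CG45061 (0.60) and CG3788 (0.43). Without Tgrp the call was lost for Nop10 (0.35), Df31 (0.39), CG45061 (0.66), CG3788 (0.67) and lncRNA:roX2 (0.47). With each cell thinned to 1000 UMIs it was lost for Nop10 (0.29), Df31 (0.16), CG45061 (0.70) and lncRNA:roX2 (0.47). With GFP-negative cells of matched depth it was lost for Nop10 (0.36), Df31 (0.38) and CG3788 (0.56).

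**Figure D2:**
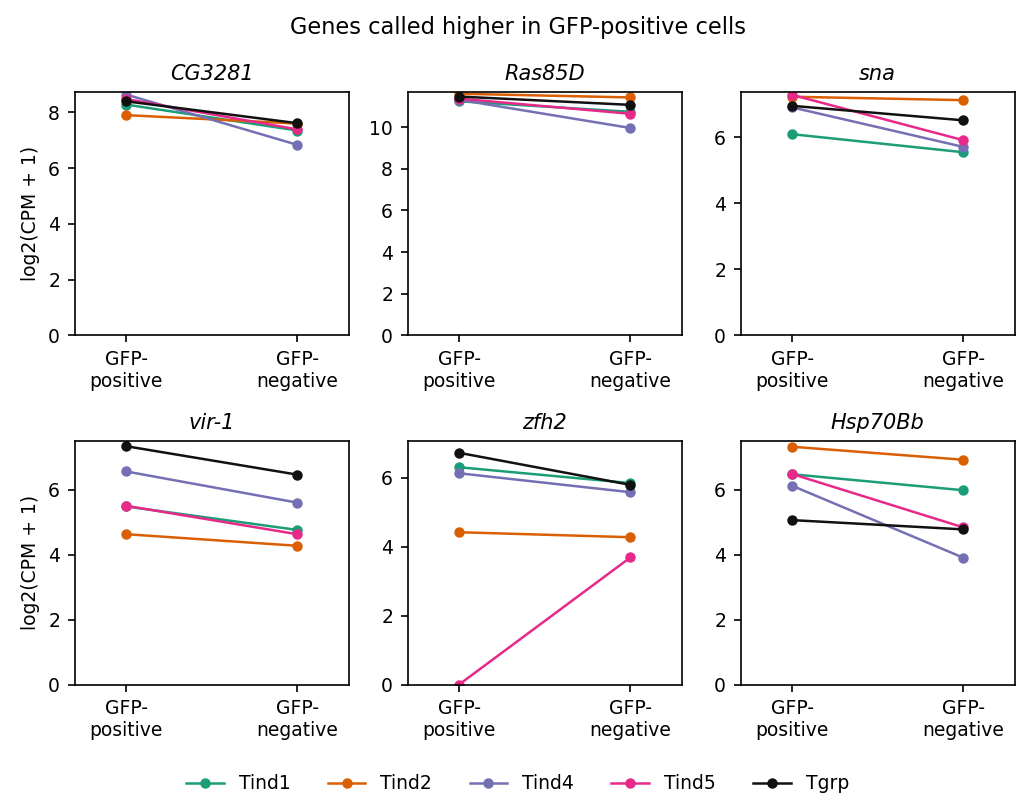
Levels of 6 genes called higher, as log2(CPM + 1) of summed UMIs, in GFP-positive (left) and GFP-negative cells (right); each line joins both classes of 1 library. CG3281 and Ras85D were higher in GFP-positive cells of all 5 libraries, and zfh2 was at 0 in GFP-positive cells of Tind5.

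Most tested genes of stem cells and enteroblasts had positive log2 fold changes, but few passed the test. Of 25 list members 20 were tested, 2 (sna and zfh2) were called higher and none lower, and 18 had a log2 fold change above 0, against 48.5% of all genes tested. Their median was 0.21, against -0.01 over all genes tested, of which 0.33% were called higher. A majority above 0 was not particular to this list. It was also found for 79 of 84 cytosolic ribosomal protein genes, 17 of 20 ribosome biogenesis genes and 13 of 15 mitochondrially encoded transcripts. It was not found for glycolysis (6 of 12) or for cytoskeleton and motility (5 of 23). The list was not tested as a whole at equal depth. The summed level of the list was 3946, 4568, 4625, 3548 and 4193 CPM in GFP-positive cells, against 3244, 4316, 3714, 3631 and 3839 CPM in GFP-negative cells, so that only Tind5 went the other way.

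sna encodes Snail, a repressor of epithelial genes best known from the fly mesoderm. It had 67.4, 149, 119, 155 and 123 CPM in GFP-positive cells, against 45.8, 139, 51.4, 59.3 and 90.5 CPM in GFP-negative cells (log2 fold change 0.62 ± 0.15 (SE), adjusted p = 0.025), a 1.54-fold difference, and Tind2 was nearly level. The classes overlapped across libraries. The call was lost without Tind1 (0.65, adjusted p = 0.0863 in edgeR), without Tind4 (0.43) and without Tgrp (0.69). Among the alternatives sna was called in 15 of 25 and zfh2 in 10 of 20. zfh2, a zinc-finger homeodomain factor of midgut progenitors, averaged 54.3 ± 42.9 CPM in GFP-positive cells and 37.5 ± 20.9 CPM in GFP-negative cells (SD, n = 5 libraries each) (log2 fold change 0.61 ± 0.16 (SE), adjusted p = 0.042) and was higher in 4 of 5 libraries. It too lost the call without Tind1 (0.70), without Tind4 (0.61), without Tgrp (0.46) or with GFP-negative cells of matched depth (0.54, adjusted p = 0.186 in edgeR).

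esg itself, whose promoter drives the Gal4, did not pass the threshold. It stood at 172, 319, 169.6, 288 and 253 CPM in GFP-positive cells, against 123, 270.1, 117, 296 and 214 CPM in GFP-negative cells (log2 fold change 0.35 ± 0.11 (SE), adjusted p = 0.113). Tind5 was about level and the other 4 libraries were higher in GFP-positive cells. Each cell was also thinned to 1000 UMIs, with classes kept from full depth. In that setting esg was detected in 19.3% of GFP-positive cells (171 of 888) and in 14.4% of GFP-negative cells (553 of 3840). Delta, the Notch ligand of stem cells, stood at 90.4, 74.6, 279, 44.4 and 227 CPM in GFP-positive cells, against 80.8, 65.6, 198, 55.3 and 142 CPM in GFP-negative cells (log2 fold change 0.42 ± 0.13 (SE), adjusted p = 0.0935), higher in 4 of 5 libraries. It was called in 1 of 25 alternatives, and 3 of the 5 thinning draws gave values below 0, from -0.42 to -0.24. Among cells with an esg UMI, esg itself was at -0.27. Its own UMIs chose those cells and the classes differ in depth, so that value is no measure of its level.

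None of the remaining list members passed, although N was called in 3 of 25 alternatives and mira in 2. The log2 fold changes were 0.34 for the receptor gene N, 0.45 for mira, which anchors fate determinants in dividing neuroblasts, 0.37 for klu and 0.31 for Sox21a, both enteroblast factors, 0.34 for the PDGF and VEGF receptor gene Pvr, and 0.24 for Egfr. They were 0.18 for heca, 0.16 for Sox100B, 0.12 for peb, 0.08 for the integrin gene mys and 0.08 for the midgut GATA factor gene GATAe. The Notch targets E(spl)malpha-BFM, E(spl)mbeta-HLH and E(spl)m3-HLH were at 0.18, 0.05 and 0.04. Below 0 were scb, an integrin gene, at -0.40 (adjusted p = 0.158 in edgeR) and Su(H), the transcription factor of Notch signaling, at -0.62 (adjusted p = 0.432), and both were lower in all 5 libraries.

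Genes of the smooth septate junction, the barrier between midgut enterocytes, were lower in GFP-positive cells of every library. Ssk, a membrane protein needed to build it, had 371, 102, 262, 0 and 262 CPM in GFP-positive cells, against 619, 554, 1937, 585 and 1059 CPM in GFP-negative cells. In Tind4 the GFP-negative cells were the highest of all, and in Tind5 no Ssk UMI was found in GFP-positive cells. The GFP-positive values did not overlap with the GFP-negative ones. Ssk (FBgn0036945, chromosome arm 3L, 20188522 to 20189779) averaged 199 ± 147 CPM in GFP-positive cells and 951 ± 588 CPM in GFP-negative cells (SD, n = 5 libraries each) and was 4.00-fold lower in GFP-positive cells (log2 fold change -1.9996 ± 0.21 (SE), adjusted p = 2.55e-07).

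mesh, which encodes a transmembrane partner of Ssk, stood at 45.9, 3.39, 35.6, 0 and 56.4 CPM in GFP-positive cells, against 77.3, 99.2, 272, 130.4 and 242 CPM in GFP-negative cells (log2 fold change -2.0016 ± 0.23 (SE), adjusted p = 1.62e-06). Tsp2A, a tetraspanin of the same junction, stood at 104, 20.3, 109, 0 and 113 CPM in GFP-positive cells, against 169, 102, 416, 225 and 319 CPM in GFP-negative cells (log2 fold change -1.45 ± 0.17 (SE), adjusted p = 1.76e-06). hoka, a further membrane protein of the complex, averaged 89.9 ± 75.5 CPM in GFP-positive cells and 194 ± 73.2 CPM in GFP-negative cells (SD, n = 5 libraries each) (log2 fold change -0.85 ± 0.16 (SE), adjusted p = 0.00129). All 4 genes were thus called lower and were lower in each of the 5 libraries, which held for 1.25% of all genes tested. Their sum was 625.3, 159, 599.6, 0 and 549 CPM in GFP-positive cells, against 1013, 879, 2908, 1094 and 1884 CPM in GFP-negative cells. Their coordinates are FBgn0051004, chromosome arm 3R, 31178389 to 31195762 for mesh, FBgn0024361, chromosome arm X, 1346553 to 1348143 for Tsp2A and FBgn0035583, chromosome arm 3L, 4898900 to 4900869 for hoka. Ssk, mesh and Tsp2A kept the call without any 1 library, mesh being at -2.66 without Tind1, and hoka lost it without Tgrp (-0.74, adjusted p = 0.0916 in edgeR).

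The share of cells with a transcript was taken after each cell was thinned to 1000 UMIs, with classes kept from full depth. Shares here pool the 5 libraries, and Tgrp gave 178 of 888 GFP-positive but 1700 of 3840 GFP-negative cells. Ssk was detected in 7.77% of GFP-positive cells (exact 95% interval 6.10 to 9.73%), against 19.1% of GFP-negative cells (17.9 to 20.4%). By library Ssk was detected in 8.02%, 2.31%, 9.39%, 0% and 10.7% of GFP-positive cells, against 13.9%, 9.32%, 33.1%, 17.7% and 21.5% of GFP-negative cells. mesh was detected in 1.58% (0.865 to 2.63%) and 8.33% (7.48 to 9.25%), and Tsp2A in 57 of 888 cells (4.90 to 8.24%) and 498 of 3840 cells (13.0%, 11.9 to 14.1%). The lower level therefore went with fewer cells that held a transcript. For comparison, Ras85D was detected at this depth in 76.4% of GFP-positive cells and in 57.1% of GFP-negative cells, and CG3281 in 25.6% and 13.9%.

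Of the enterocyte list as a whole, 40 genes, only 5 reached the count needed for testing, and 14 had no UMI in either class. Of the 5 tested, 3 (Ssk, mesh and Tsp2A) were called lower and none higher, against 1.74% of all genes called lower. The list summed to 728, 251, 606, 44.4 and 571 CPM in GFP-positive cells, against 1065, 1643, 2851, 1383 and 2016 CPM in GFP-negative cells. Without Ssk, mesh and Tsp2A, the other 37 members, mainly digestive enzymes, summed to 207, 125, 199, 44.4 and 140.2 CPM in GFP-positive cells, against 199, 888, 226, 443 and 396 CPM in GFP-negative cells, so Tind1 and Tind4 were near level and the other 3 libraries were lower. Myo31DF (log2 fold change 0.01) and Mal-A6 (-0.04) were tested and did not pass. The part of enterocytes in the differences was not tested.

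Among other septate junction genes, 10 were tested and 2 were called lower, against 1.74% of all genes tested. These were cora (-0.58, adjusted p = 0.037 in edgeR), which encodes a cytoplasmic protein of pleated junctions, and Gli (-0.74, adjusted p = 0.042), which encodes a protein of tricellular junctions. The median of the 10 genes was 0.02, close to that of all genes. cora lost the call without Tind4 (-0.41) or without Tgrp (-0.66), and Gli without Tind1 (-0.87), without Tind4 (-0.59) or without Tgrp (-0.83). With GFP-negative cells of matched depth neither passed (-0.44 for cora and -0.51 for Gli), and cora also not with each cell thinned to 1000 UMIs (-0.86). These families were set up after the values had been seen.

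**Figure D3:**
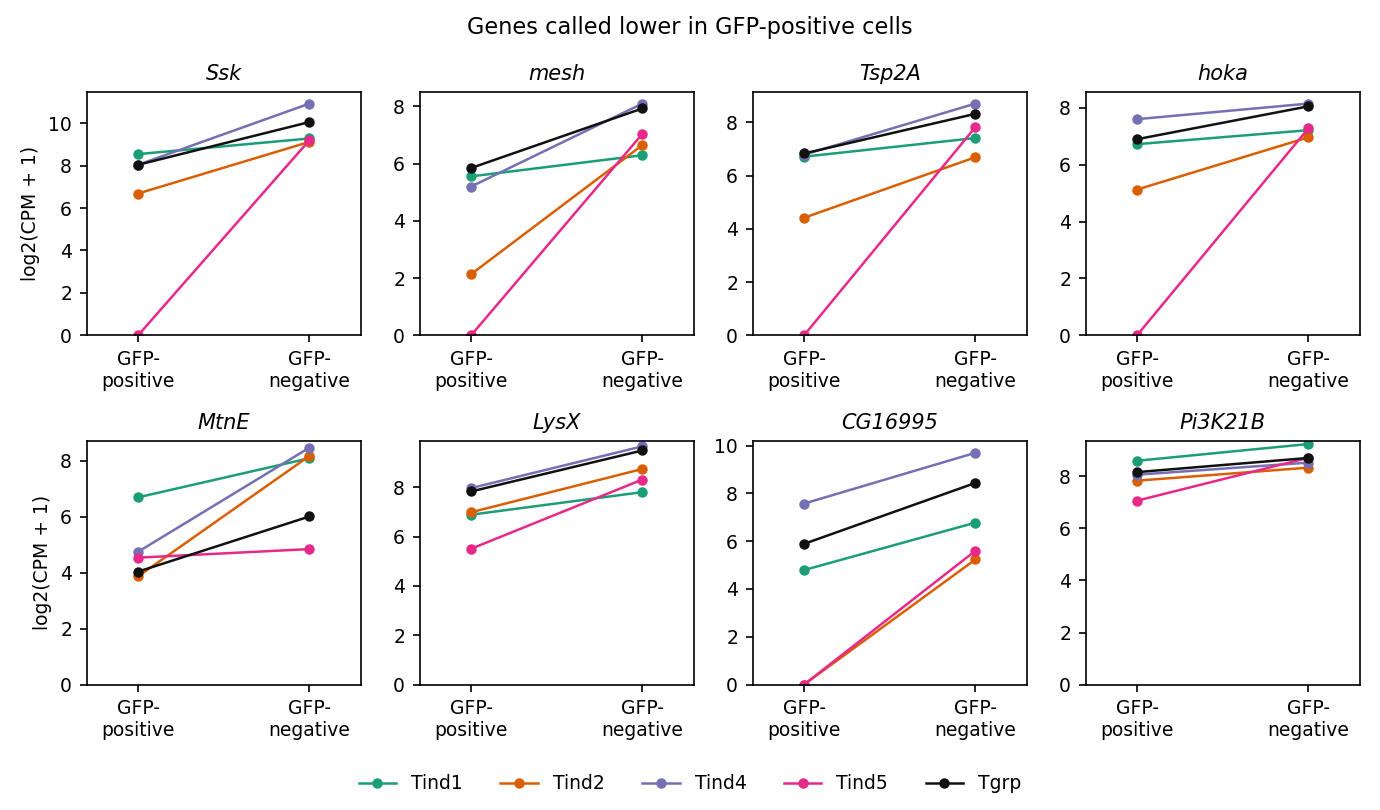
Levels of 8 genes called lower, as log2(CPM + 1) of summed UMIs, in GFP-positive (left) and GFP-negative cells (right); each line joins both classes of 1 library. All lines of Ssk, mesh, Tsp2A and hoka climb to the right, and in Tind5 these 4 genes were at 0 in GFP-positive cells.

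Metallothionein genes, whose small proteins bind copper and zinc, were lower too. This family was also set up after the values had been seen, and 3 of its 6 genes were tested. MtnE stood at 102, 13.6, 25.8, 22.2 and 15.4 CPM in GFP-positive cells, against 271, 287, 352, 27.7 and 63.3 CPM in GFP-negative cells (log2 fold change -2.37 ± 0.24 (SE), adjusted p = 2.21e-07). In the summed UMIs the difference was large in Tind2 and Tind4 and small in Tind5, where 1 UMI stood against 7. Few cells carried it. At 1000 UMIs per cell, with classes kept from full depth, MtnE was detected in 1.58% of GFP-positive cells and 2.60% of GFP-negative cells. In Tind2 it was found in 2 of 130 and 4 of 354 cells, so that there the share of cells did not follow the sum. With cells thinned and then classified, the log2 fold change was -1.31 for MtnE and -2.21 for MtnA. MtnD (log2 fold change -2.27 ± 0.28 (SE), adjusted p = 3.27e-06) lies beside MtnE on chromosome arm 3R. It was lower in 4 libraries, and in Tind5 it was higher, at 88.7 CPM in GFP-positive cells, against 15.8 CPM in GFP-negative cells, with 4 UMIs in each class. MtnA stood at 452, 156, 113, 310.5 and 243 CPM in GFP-positive cells, against 1613, 545, 481, 98.8 and 234 CPM in GFP-negative cells (log2 fold change -1.28 ± 0.24 (SE), adjusted p = 0.00112), so it was lower in 3 libraries, level in the pool and higher in Tind5. Without Tind1 its log2 fold change was -1.02 (adjusted p = 0.0664 in edgeR), and without Tind4 -1.02 (0.0996).

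LysX, a digestive lysozyme gene, stood at 117, 125, 248, 44.4 and 226 CPM in GFP-positive cells, against 222, 426, 805, 316 and 717 CPM in GFP-negative cells (log2 fold change -1.51 ± 0.13 (SE), adjusted p = 9.55e-09). CG16995 had the smallest p of all genes and stood at 26.7, 0, 189, 0 and 58.1 CPM in GFP-positive cells, against 108, 36.6, 829.4, 47.4 and 345 CPM in GFP-negative cells (log2 fold change -2.26 ± 0.16 (SE), adjusted p = 1.08e-10). Both were lower in every library, and for both the lowest GFP-negative library lay within the GFP-positive range. In Tind2 and Tind5 no CG16995 UMI was found in GFP-positive cells, against 24 and 12 in GFP-negative cells.

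The other genes with large falls in every library were mostly without a name. CG13315 had the largest fall of this set, with 8.15, 0, 8.60, 0 and 13.7 CPM in GFP-positive cells, against 27.7, 59.5, 30.3, 186 and 179 CPM in GFP-negative cells (log2 fold change -2.86 ± 0.30 (SE), adjusted p = 2.28e-07). The log2 fold changes were -2.29 for CG15210, -2.29 for Pebp1, a phosphatidylethanolamine-binding protein gene, -2.12 for the mucin-related Mur29B, -1.81 for CG9380 and -1.80 for CG34176. They were -1.69 for Oatp33Eb, an organic anion transporter, -1.60 for CG13321 and -1.42 for CG44008. Over these 8 genes the adjusted p in edgeR ran from 1.62e-06 for CG9380 to 0.00264 for CG34176. In GFP-positive cells of Tind5, all 9 of these genes were at 0. Without the pool, Pebp1 (-1.95) and CG34176 (-1.11) lost the call. The lower level of CG13323 (log2 fold change -4.51) was widest apart in Tind2, where it had 13.6 CPM in GFP-positive cells, against 1512 CPM in GFP-negative cells. Without Tind2 it was -2.77 and still called.

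Some genes called lower were neighbours. CG34176, CG15422 (-1.33) and CG15423 (-1.39) lie between 4004080 and 4006606 on chromosome arm 2L, CG43349 (-1.40) and CG5011 (-1.32) between 1200205 and 1201220 on the same arm, and CG7054 (-0.73) and Pebp1 between 22464985 and 22466679 on 3R. No test of clustering was made. Without Tind1 the call was lost for CG7054 (-0.87). Without Tind4 the call was lost for CG5011 (-0.97) and CG7054 (-0.65). Without Tgrp the call was lost for CG15423 (-1.14) and CG7054 (-0.64). With GFP-negative cells of matched depth it was lost for CG15423 (-0.87).

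Among genes with smaller falls, Pi3K21B, the regulatory subunit of the phosphoinositide 3-kinase of insulin signaling, stood at 387, 227, 267, 133 and 286 CPM in GFP-positive cells, against 605, 322, 368, 419 and 417 CPM in GFP-negative cells (log2 fold change -0.59 ± 0.12 (SE), adjusted p = 0.00237), and kept the call without any 1 library. The lysosomal protease genes CtsB (-0.66) and CtsL1 (-0.56) were called lower, and CtsF (-0.16) was not. Both lost the call without Tind4 (-0.53 for CtsB and -0.49 for CtsL1) or without Tgrp (-0.54 and -0.44), and CtsB also with each cell thinned to 1000 UMIs (-0.42). CG5399 averaged 436 ± 95 CPM in GFP-positive cells and 759 ± 177 CPM in GFP-negative cells (SD, n = 5 libraries each) (log2 fold change -0.76 ± 0.12 (SE), adjusted p = 0.000147).

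Further genes called lower were the tetraspanin genes Tsp29Fb (-0.73) and Tsp42Ed (-0.46), the arginine kinase gene Argk1 (-0.74), the ceramidase gene bwa (-1.39) and the lipocalin gene NLaz (-0.89). Ero1L (-0.72), the oxidase of disulfide formation in the endoplasmic reticulum, and Manf (-0.48), a factor of the same compartment, were lower in all 5 libraries. So were Decay (-0.60), which encodes a caspase, and Mnt (-0.69), an antagonist of Myc. The adjusted p in edgeR was 0.00782 for Tsp29Fb, 0.0129 for Argk1, 0.0168 for Ero1L and 0.0474 for Manf. Without Tind1 the call was lost for bwa (-0.95), NLaz (-0.94), Ero1L (-0.46), Manf (-0.50), Decay (-0.68) and Mnt (-0.77). Without Tind2 the call was lost for Manf (-0.45). Without Tind4 the call was lost for Tsp42Ed (-0.49), Argk1 (-0.72), Manf (-0.40) and Mnt (-0.61). Without Tgrp the call was lost for Tsp29Fb (-0.79), Tsp42Ed (-0.39), Argk1 (-0.70), bwa (-1.21), Ero1L (-0.77), Manf (-0.61), Decay (-0.57) and Mnt (-0.61). With each cell thinned to 1000 UMIs it was lost for Tsp29Fb (-0.65), Tsp42Ed (-0.71), Manf (-0.19) and Decay (-0.69). With GFP-negative cells of matched depth it was lost for Tsp42Ed (-0.37), NLaz (-0.39), Ero1L (-0.55), Decay (-0.46) and Mnt (-0.66).

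Levels were also followed by the number of Cd8a-EGFP UMIs in the 3 libraries with at least 10 cells at 3 or more UMIs, as a description. Ras85D stood at 1699, 2234, 2488 and 3388 CPM in cells of Tind1 with 0, 1, 2 and 3 or more Cd8a-EGFP UMIs, at 2745, 2866, 3245 and 3911 CPM in Tind2, and at 992, 2498, 2249 and 2933 CPM in Tind4. It was highest at 3 or more UMIs in each. Ssk stood at 619, 380.3, 489 and 55.7 CPM in Tind1, at 554, 16.6, 354 and 24.3 CPM in Tind2, and at 1937, 320.4, 234 and 182 CPM in Tind4. Cells with 0 and with 1 UMI differed in Ssk in all 3 libraries. Those with 0 are the whole GFP-negative class and those with 1 most of the GFP-positive class, so this largely repeats the main comparison. CG3281 stood at 162, 312, 264 and 389.6 CPM in Tind1, at 192, 261, 177 and 243 CPM in Tind2 and at 113, 352, 410.1 and 468 CPM in Tind4, lowest at 0 UMIs in Tind1 and Tind4 only. Cells with more Cd8a-EGFP UMIs were also deeper, with medians of 2022, 2762.5, 3530 and 3827 UMIs in Tind1, and only 35, 14 and 41 cells of Tind1, Tind2 and Tind4 had 3 or more.

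**Figure D4:**
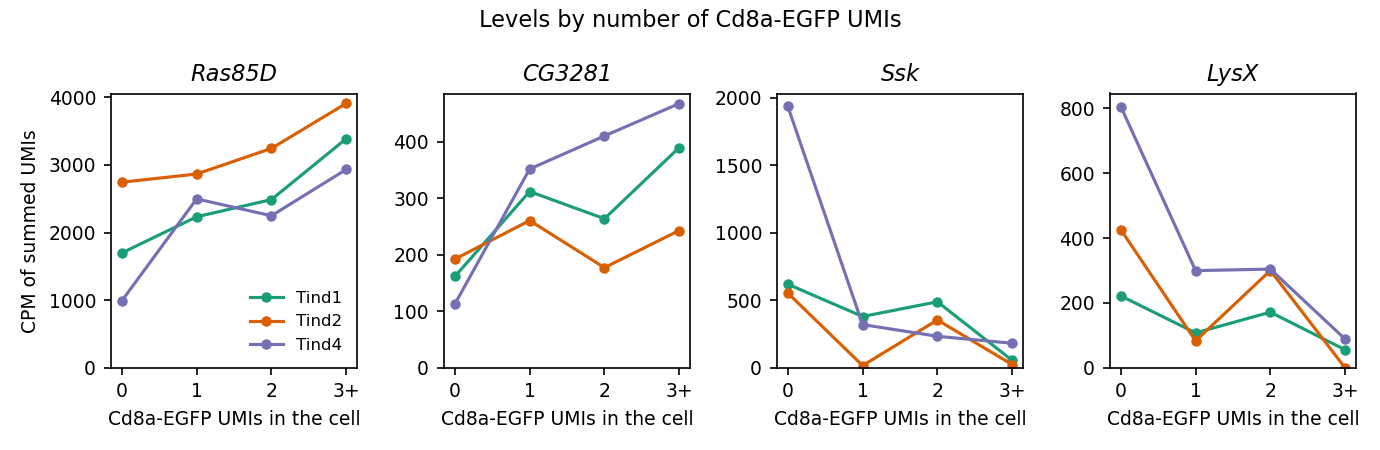
Levels of Ras85D, CG3281, Ssk and LysX (CPM of summed UMIs) in cells grouped by their number of Cd8a-EGFP UMIs (0, 1, 2, 3 or more) in Tind1, Tind2 and Tind4. Ras85D was highest at 3 or more UMIs in each library, at 3388, 3911 and 2933 CPM, and Ssk at 0 UMIs, at 619, 554 and 1937 CPM.

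Depth was checked with several alternatives. With every cell thinned to 1000 UMIs and then classified, 1655 genes could be tested and 9 were called higher and 20 lower. Of the 15 genes called higher at full depth, 9 could be tested, all kept their direction and 5 kept the call, and of the 79 genes called lower 33 could be tested, all kept their direction and 18 kept the call. Ras85D (0.68), CG3281 (0.92), sna (1.11) and Hsp70Bb (1.06) were among those still called higher, and Ssk (-2.65), Tsp2A (-1.88), LysX (-1.52) and CG16995 (-2.24) among those still lower. With 1 GFP-negative cell of matched depth per GFP-positive cell, 24 genes were called higher and 53 lower, and of the genes called at full depth 11 of 15 and 47 of 72 tested remained.

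The classes were next compared among cells that held an esg UMI, and among those that held none. Of GFP-positive cells 39.3%, 43.1%, 44.2%, 36.0% and 47.2% had an esg UMI in Tind1, Tind2, Tind4, Tind5 and Tgrp, against 21.8%, 30.8%, 23.5%, 31.3% and 29.8% of GFP-negative cells, at their unequal depths. Among cells with an esg UMI, in 4 libraries, 8 genes were called higher and 4 lower. Ras85D (0.34), CG3281 (0.69) and vir-1 (0.89) were still called higher, whereas sna was at 0.25. mesh (-1.43) and CG16995 (-1.89) were still called lower, and Ssk (-0.73, adjusted p = 0.151 in edgeR), Tsp2A (-0.65, 0.184) and LysX (-0.66, 0.0539) did not pass. Of the 79 genes called lower among all cells, 49 could be tested there, 47 kept their direction and 4 kept the call, with a median log2 fold change of -0.41, against -0.74 for the same genes among all cells.

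Among cells without an esg UMI, in 5 libraries, 5 genes were called higher and 41 lower. Ras85D (0.80), CG3281 (1.24), Ssk (-2.15), mesh (-1.79), Tsp2A (-1.43) and CG16995 (-1.98) all passed, and 36 of 68 tested genes of those called lower kept the call. Whether the differences among cells with and without an esg UMI differ from each other was not tested.

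Few genes of pathways linked to the tumor model were called. Of 21 tested genes of EGFR and Ras signaling, Ras85D was called higher and none lower (median 0.13). aos, a secreted inhibitor induced by the pathway, was at 0.57 (adjusted p = 0.0573 in edgeR), rho, the protease that releases its ligands, at -0.60 (0.0531) and the ETS factor gene Ets21C at 0.32 (0.284), and none of the 3 passed. Among the alternatives rho was called in 6 of 23 and aos in 3 of 20. Of 15 Wnt genes none was called (median -0.04), with Frl at 0.21 and the target nkd at 0.23. Of 13 Notch genes none was called (median 0.18), with neur, which activates the ligand, at 0.47. Of 15 JAK/STAT and JNK genes none was called (median 0.11), with the kinase gene hep at -0.56 (adjusted p = 0.0582 in edgeR) and the ligand gene upd2 at 0.63 (0.0987). upd2 was called in 8 of 22 alternatives, with depth-matched cells at 0.75, and hep in 5 of 25.

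Growth and metabolic lists, which do not include the called genes Nop10, Ero1L and Manf, were without calls in the comparison of all cells. This held for 29 tested genes of dividing cells (median 0.18; 22 above 0), with the cyclin gene CycA at 0.47 and the kinesin gene Klp61F at 0.46. It held for 84 cytosolic ribosomal protein genes (median 0.11; 79 above 0), with RpS2 at 0.25, for 20 genes of ribosome biogenesis (median 0.24), with Nop60B at 0.36, and for 15 mitochondrially encoded transcripts (median 0.16), with mt:ND6 at 0.30. Glycolysis (12 genes, median -0.01), with Ldh at 0.39 (adjusted p = 0.128 in edgeR), oxidative phosphorylation (67 genes, 0.05), with ND-ASHI at 0.40, and fatty acid and lipid synthesis (13 genes, 0.03), with Men at 0.32, had no gene called either. The same was true of endoplasmic reticulum chaperones (20 genes, 0.00), with Cnx99A at -0.38, and of the cytoskeleton and motility list (23 genes, -0.11; 18 below 0), with Svil at -0.33. Of 16 heat-shock genes only Hsp70Bb was called (median 0.04), with Hsp26 at 0.20, and of 2 antimicrobial genes none, with Listericin at -0.10 and Rel at 0.05. Some of these genes passed under alternatives: Ldh in 6 of 25, at 0.40 thinned and 0.39 depth-matched, Hsp26 in 5 of 25, at 0.48 thinned and 0.53 depth-matched, mt:ND6 in 3, Cnx99A in 2, and mt:ND3, RpL41 and Listericin in 1 each.

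**Figure D5:**
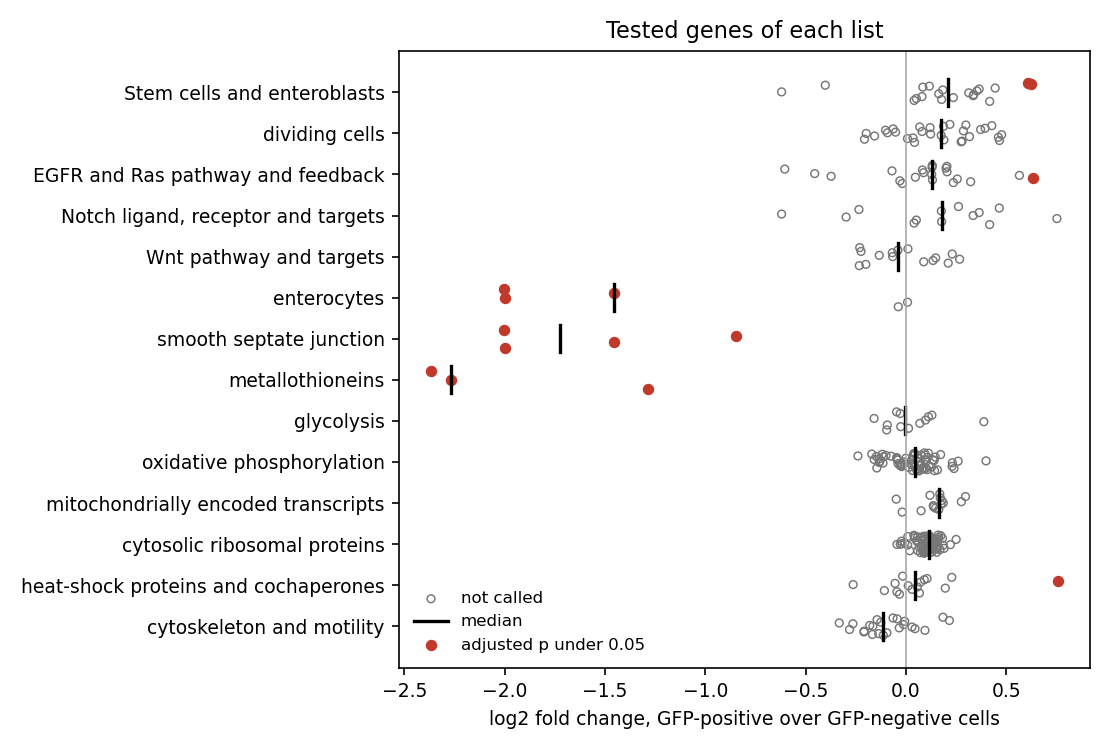
Log2 fold changes (GFP-positive over GFP-negative cells) of all tested genes in 14 lists; each point is a gene, filled red where the adjusted p is under 0.05, and the black bar is the list's median. Smooth septate junction genes and metallothioneins lie between -2.37 and -0.85, but both families were set up after the values had been seen. Above 0 lie 18 of 20 stem cell and enteroblast genes and 79 of 84 cytosolic ribosomal protein genes.

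Markers of other cell types were sparse. The enteroendocrine list summed to 243, 258, 350.2, 88.7 and 462 CPM in GFP-positive cells, against 229, 272, 352, 435 and 468 CPM in GFP-negative cells, and none of its 5 tested genes was called (median 0.10), with Piezo, a mechanosensitive channel gene of enteroendocrine precursors, at 0.39. The visceral muscle list summed to 199.6 to 728.5 CPM in GFP-positive cells, against 523 to 769 CPM in GFP-negative cells, with 5 genes tested and none called, Zasp52 being at -0.97 (adjusted p = 0.0971 in edgeR) and called in 3 of 17 alternatives. Of hemocyte and neuron genes 1 each was tested and none called, crq at -0.09 and elav at -0.56. No gene of the trachea, fat body or germ line and follicle cell lists reached the count needed for testing, and those lists held 23, 21 and 34 UMIs in GFP-positive cells, against 94, 63 and 127 in GFP-negative cells. The part of these cell types in the results was not tested.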

How the data were processed

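Single-cell RNA was sequenced with 10x 3' chemistry from 7 libraries of Drosophila tumors. Per the labels, the authors made the deposited UMI counts per gene and cell with Cell Ranger 6.0.1, with entries for reporter sequences added. The counts are whole numbers and were not normalized. Of 17619 features 17556 matched a symbol. Cells were kept as stated above, UMIs were summed per library and class, and Cd8a-EGFP, mCitrine and Cd8a-mCherry were left out. The main test was edgeR 4.0.16 (quasi-likelihood, TMM, low-count filter by class, library as block, two-sided) in R 4.3.3. DESeq2 1.42.0 was an alternative. No doublets were removed in the main analysis; leaving out the highest Scrublet scores, at 0.8% per 1000 cells, was an alternative.

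The samples are separate tumors or a pool. With the library as block, p-values measure how the difference between both classes within a library spreads over 5 libraries. Both sums of a library come from the same tumors and run, and their deviations correlated (r = 0.52, 0.36, 0.60, 0.16 and 0.42 in Tind1, Tind2, Tind4, Tind5 and Tgrp). In Tgrp, however, both sums may hold the 6 tumors in unlike proportions, which the block does not remove. The part of this in the results was not tested. Named were the 15 largest called rises and falls with the same direction in every library and a mean of 20 CPM or more (7 rises qualified), tested stem cell and enteroblast genes, Ras85D, the added entries and the 2 to 4 lowest p of each other list. Other genes in the text were chosen after their values were seen. Members and lists were chosen with earlier results of these data known. A planned comparison with cells holding Cd8a-mCherry but no Cd8a-EGFP UMI was not run, because only Tgrp had at least 10 such cells. On simulated counts for 4550 genes with 200 changed by 1 on the log2 scale, 88% were recovered and 3.83% of calls were false. The simulation gave all genes the same spread (dispersion 0.00963) and each changed gene the same change in every library. The real genes differ in both, so these rates need not hold for the real counts.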

Additional observations from a re-analysis of the deposited data

Results flagged for a closer look

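The 2 libraries outside the comparison held GFP-positive cells, in numbers above the limit that a count of 0 allows, which is 3 cells and says nothing of background. The share was 20.0% in Tind3 (6 of 30 cells, limit 10.0%) and 8.51% in Tind6 (4 of 47 cells, limit 6.38%). In Tind6 all 4 cells had a single Cd8a-EGFP UMI and in the first draw 2.13% of cells were GFP-positive at 1000 UMIs, below that limit, and the part of free RNA was not tested.

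Entries of added sequences that chose no class also held signal. Cd8a-mCherry had a UMI in 21 of 4805 cells, 4 of them GFP-positive and 17 GFP-negative, and mCitrine in 4 cells, 2 of each class. Of the added entries without a name, 1 had a UMI in 31 cells (5 GFP-positive and 26 GFP-negative) and another in 56 cells (23 GFP-positive and 33 GFP-negative), and what they stand for is not given in the sources used here. The recombinase entry was tested and had a log2 fold change of -0.00. Of 24 groups of library values checked for 1 value far from the others, none was.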

How the results depend on the processing

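The counts of calls moved with the processing, their directions little. Main counts were 15 higher and 79 lower. Higher and lower calls were 28 and 121 at a minimum of 500 UMIs, 24 and 53 with depth-matched negative cells, 8 and 4 in cells with an esg UMI, 5 and 41 in cells without one, 3 and 32 with the DESeq2 Wald test, and 35 and 193 with no filter on low counts, where the median of all 11415 genes was -0.13. Thinning to 1000 UMIs gave 9 and 20, and 4 further draws, chosen after seeing the data, gave 13 and 24, 6 and 17, 5 and 17, and 6 and 19. Classes set at full depth with thinned sums, also chosen after seeing the data, gave 11 and 45. Without each library in turn, the counts ran from 4 to 32 higher and from 33 to 127 lower: 7 and 51 without Tind1, 27 and 127 without Tind2, 4 and 39 without Tind4, 32 and 105 without Tind5, and 5 and 33 without Tgrp. Without the replicate block edgeR called 0 higher and 0 lower, with 98 genes at an unadjusted p under 0.05, the pairing of both classes within a library being left out. The other 7 alternatives stayed within 1.5 times of both counts, with 14 to 22 higher and 59 to 100 lower. Of the main calls, 3 of 15 higher and 32 of 79 lower remained with the DESeq2 Wald test, and none changed direction. Similar counts did not always mean the same genes. With 2 or more Cd8a-EGFP UMIs as the positive class, 19 were called higher and 59 lower. Of the 15 main higher calls 6 remained there, and of the 79 lower calls 75 could be tested and 42 remained. All genes tested kept their direction. The share of GFP-positive cells at 1000 UMIs was, in the first draw: Tgrp 4.26%, Tind6 2.13%, Tind5 9.30%, Tind4 14.8%, Tind3 13.3%, Tind2 17.4% and Tind1 10.3%. Over 5 draws Tind6 had 1 to 4 GFP-positive cells and Tind3 4 to 6, the upper ends equal to full depth.

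Of 161 genes followed through 25 alternatives, a sign changed beside a call in 4 cases. In cells with an esg UMI CG15422 was at 0.017, Manf at 0.25 and Listericin, uncalled before, at 0.74, and cora was at 0.024 in the third thinning draw. The causes were not tested. The alternatives planned for the comparison with Cd8a-mCherry cells were not run, since that comparison was not. A further 104 sign changes, in 38 genes, concerned values past no threshold in either setting. The depth of the GFP-positive sums, smallest in Tind5 at 45095 UMIs, limits what can be seen, and most GFP-positive cells had a single Cd8a-EGFP UMI.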
